A study of Mus musculus with 8 samples.

Results

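The STAT factors and Janus kinases carry the signals of many cytokine receptors from the cell surface to the nucleus. The 9 genes described here, Stat2, Stat3, Stat4, Stat5a, Stat5b, Stat6, Jak1, Jak2 and Jak3, were taken by name through the transcript identifiers of their array probes, out of 37018 genes and transcripts measured. Where a gene had several probes, the one with the highest mean intensity over the arrays was used. Each of these probes was well above background in all 16 channels, and all 9 genes passed the filter on dim signals.

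Peritoneal macrophages came from C57BL/6 mice. KO stands for LysMCre-fur(fl/fl) mice, in which Cre recombinase is expressed from the Lysozyme M locus (Lyz2), active in macrophages and neutrophils, and excises floxed Furin, the gene of the proprotein convertase FURIN. WT littermates served as controls. Cells of both genotypes were cultured for 24 h, washed free of nonadherent cells and kept for 1 h in fresh medium, per the labels, and were then left unstimulated (0 h) or stimulated with LPS, a Toll-like receptor 4 ligand, at 1 μg/ml for 1, 4 or 24 h. The sources do not give the age of the mice used for the arrays, though the paper gives one for other assays, or how many mice stand behind a sample. Each 2-colour Agilent array carried a KO and a WT sample from 1 time point, with 2 arrays per time point and 8 in all, labelled as biological replicates 1 and 2. KO RNA carried Cy5 in replicate 1 and Cy3 in replicate 2, so replicate number and dye cannot be told apart in the KO/WT ratios. All 8 arrays lay on 1 slide, those of 0 and 1 h in one row and those of 4 and 24 h in the other. Since the growth protocol gives a stimulation of 4 h throughout, time points were read from the titles.

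Between 43.8% and 51.3% of the gene spots of a channel were well above background. Furin, which the genotype deletes, had a log2 KO/WT ratio of -0.59 and -0.85 without LPS, -0.56 and -0.55 at 1 h, 0.0002 and 0.33 at 4 h, with -0.59 and -0.69 at 24 h. The paper reports that macrophages of these mice had almost no Furin mRNA, a larger loss than on any array here. The Furin ratio on the arrays was below 0 on the 6 arrays of 0, 1 and 24 h and not on those of 4 h, where the genotype label goes against its target gene. RNA that includes the 4 h samples is therefore called the RNA labelled KO, and KO/WT ratios follow the labels. Lyz2, the locus that carries Cre, was lower in the RNA labelled KO on all 8 arrays, with log2 ratios from -1.85 to -0.74. Of the 9 defining macrophage markers measured, 8 were well above background on both arrays of every condition, and Cd163 in none of the channels. All 10 B cell markers were above background too, as were between 9 and 11 of 13 T and NK cell markers, so transcripts of several cell types were present. In such bulk RNA, fewer cells of a type and less RNA per cell cannot be told apart.

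In the JAK-STAT pathway, a cytokine receptor brings paired Janus kinases together, and the kinases phosphorylate the receptor and the STAT protein bound to it. The STAT protein then forms dimers and moves to the nucleus to activate genes. STAT2 acts in the ISGF3 complex with a partner STAT and IRF9 downstream of type I interferon, STAT3 downstream of IL-6 and IL-10, STAT4 downstream of IL-12, STAT5A and STAT5B downstream of GM-CSF and IL-2 family cytokines, and STAT6 downstream of IL-4 and IL-13. JAK1 serves interferon, gp130 and gamma chain receptors, JAK2 serves GM-CSF, IL-12 and interferon gamma receptors, and JAK3 pairs with the common gamma chain. In macrophages, LPS is known to induce interferon beta and other cytokines that act back on the cells through this pathway.

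Promoter sequences from RefSeq (GRCm38.p6) show which members carry the letters that STAT complexes bind. Each window spans 300 bases around an annotated start, most of them before it, and all 9 members have at least 1 window, 12 in all. Both strands were searched for the interferon-stimulated response element bound by ISGF3 (ISRE, here TTTC, any 2 bases and TTTC again, read on the other strand as GAAA, 2 bases and GAAA), for the STAT dimer site (GAS, here TTC and GAA parted by 3 bases) and for the spacing that STAT6 prefers (TTC and GAA parted by 4 bases). Of the 32851 promoter windows of the genome, 3.44% held the first, 8.3% the second and 6.95% the third. Shown are the members with the largest rises, Stat2 and Jak2, and Stat4, which had the largest KO/WT ratio. All 3 lie on the plus strand, and capitals mark the letters found.
Stat2, chr10:128270248-128270547: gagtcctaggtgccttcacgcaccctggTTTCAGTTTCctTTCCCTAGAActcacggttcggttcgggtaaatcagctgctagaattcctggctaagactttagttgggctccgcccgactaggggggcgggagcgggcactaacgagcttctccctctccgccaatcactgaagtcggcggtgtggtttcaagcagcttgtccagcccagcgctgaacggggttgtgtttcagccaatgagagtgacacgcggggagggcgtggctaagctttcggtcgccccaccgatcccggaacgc
Jak2, chr19:29251553-29251852: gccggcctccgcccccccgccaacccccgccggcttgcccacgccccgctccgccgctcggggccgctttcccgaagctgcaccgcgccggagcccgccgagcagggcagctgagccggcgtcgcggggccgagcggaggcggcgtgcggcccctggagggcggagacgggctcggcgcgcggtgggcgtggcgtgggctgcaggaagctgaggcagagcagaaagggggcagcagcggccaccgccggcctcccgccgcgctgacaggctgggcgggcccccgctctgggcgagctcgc
Stat4, second start, chr1:52007990-52008289: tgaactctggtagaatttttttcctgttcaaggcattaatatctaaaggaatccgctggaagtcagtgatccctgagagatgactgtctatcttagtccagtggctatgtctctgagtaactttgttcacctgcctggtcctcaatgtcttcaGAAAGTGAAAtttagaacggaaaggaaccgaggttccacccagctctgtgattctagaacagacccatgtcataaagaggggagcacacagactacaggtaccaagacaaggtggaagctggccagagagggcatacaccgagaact
The Stat2 window held an ISRE match, TTTCAGTTTC, from -222 to -213 relative to the start, and right behind it a STAT6-type match, TTCCCTAGAA, from -210 to -201. The Stat4 window held an ISRE match on the other strand, GAAAGTGAAA, from -97 to -88. None of the 3 motifs was found in the Jak2 window, nor in the other windows of the members, the first Stat4 start included. A match of letters is a description of the sequence and not a measurement of binding.

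LPS moved every member in WT cells at 4 h. Jak2, Stat2, Stat5a, Stat3, Jak1, Stat4 and Jak3 rose, in that order of fitted change, and Stat5b and Stat6 fell, with the sign of Jak3 turning without scaling between arrays. Of all 36927 genes and transcripts tested in the channels, 15.5% were called higher and 19.2% lower at 4 h in WT (limma separate-channel analysis, Benjamini-Hochberg adjusted p under 0.05 over all of them), so calls were common at that time. They were more common among the 19652 features well above background in at least 8 channels, tested on their own. Of these, 3429, 12559 and 11073 were called in either direction at 1, 4 and 24 h in WT. In the RNA labelled KO the counts were 3164, 12894 and 10521. The slide row changes with LPS between 1 and 4 h, and row and LPS cannot be told apart for 4 and 24 h. The summed intensity of the B cell markers in WT ran from 68400 to 89100 at 0 h and from 39080 to 47910 at 4 h, while their median log2 intensity was 9.77 at both times. The defining macrophage markers had their lowest sum at 24 h, 252700 to 270300 in WT against 533800 to 643500 at 0 h, but their lowest median log2 intensity at 4 h, with 14.08 at 0 h, 12.77 at 4 h and 12.96 at 24 h. Markers of large peritoneal macrophages, 10 in all, had a median log2 intensity in WT of 13.31, 11.87 and 9.63 for 0, 4 and 24 h of LPS, and that of the 8 small peritoneal macrophage markers was 11.19, 11.07 and 9.27. The sums of the large type overlapped between 0 and 24 h, with 113700 to 136600, 124700 to 140500 and 106400 to 123400. Those of the small type were 172600 to 199700, 147900 to 170900 and 130300 to 131000. For the 7 dendritic cell markers the median was 7.17, 9.78 and 7.08, while their sum had its lowest values at 24 h. The 10 mesothelial and fibroblast markers, at most 5 of them well above background in a condition, summed to 1128 to 1149 at 0 h and 2494 to 2735 at 24 h. Whether any of these markers had a part in the LPS values was not tested. In the RNA labelled KO at 4 h, 6 members were called higher and 2 lower, with 16.3% and 19.7% of all features called. The median change of the members was 0.81 in WT and 1.15 in the RNA labelled KO at 4 h on the log2 scale, where the medians over all features were -0.0006 and 0.0016. At 1 h, WT cells had 2 members called higher (Stat3 and Jak2) and 1 lower (Stat2), against 3.37% and 5.18% of all features. In KO cells 3 were called higher at 1 h (Stat3, Stat4 and Jak2) and 1 lower (Stat2), with 3.09% and 4.46% of all features called. At 24 h, 4 members were called higher (Stat2, Stat3, Jak2 and Jak3) and 3 lower (Stat5b, Stat6 and Jak1) in each genotype, and the shares of all features were 13.5% and 16.9% in WT and 12.8% and 15.9% in KO.

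**Figure D1:**
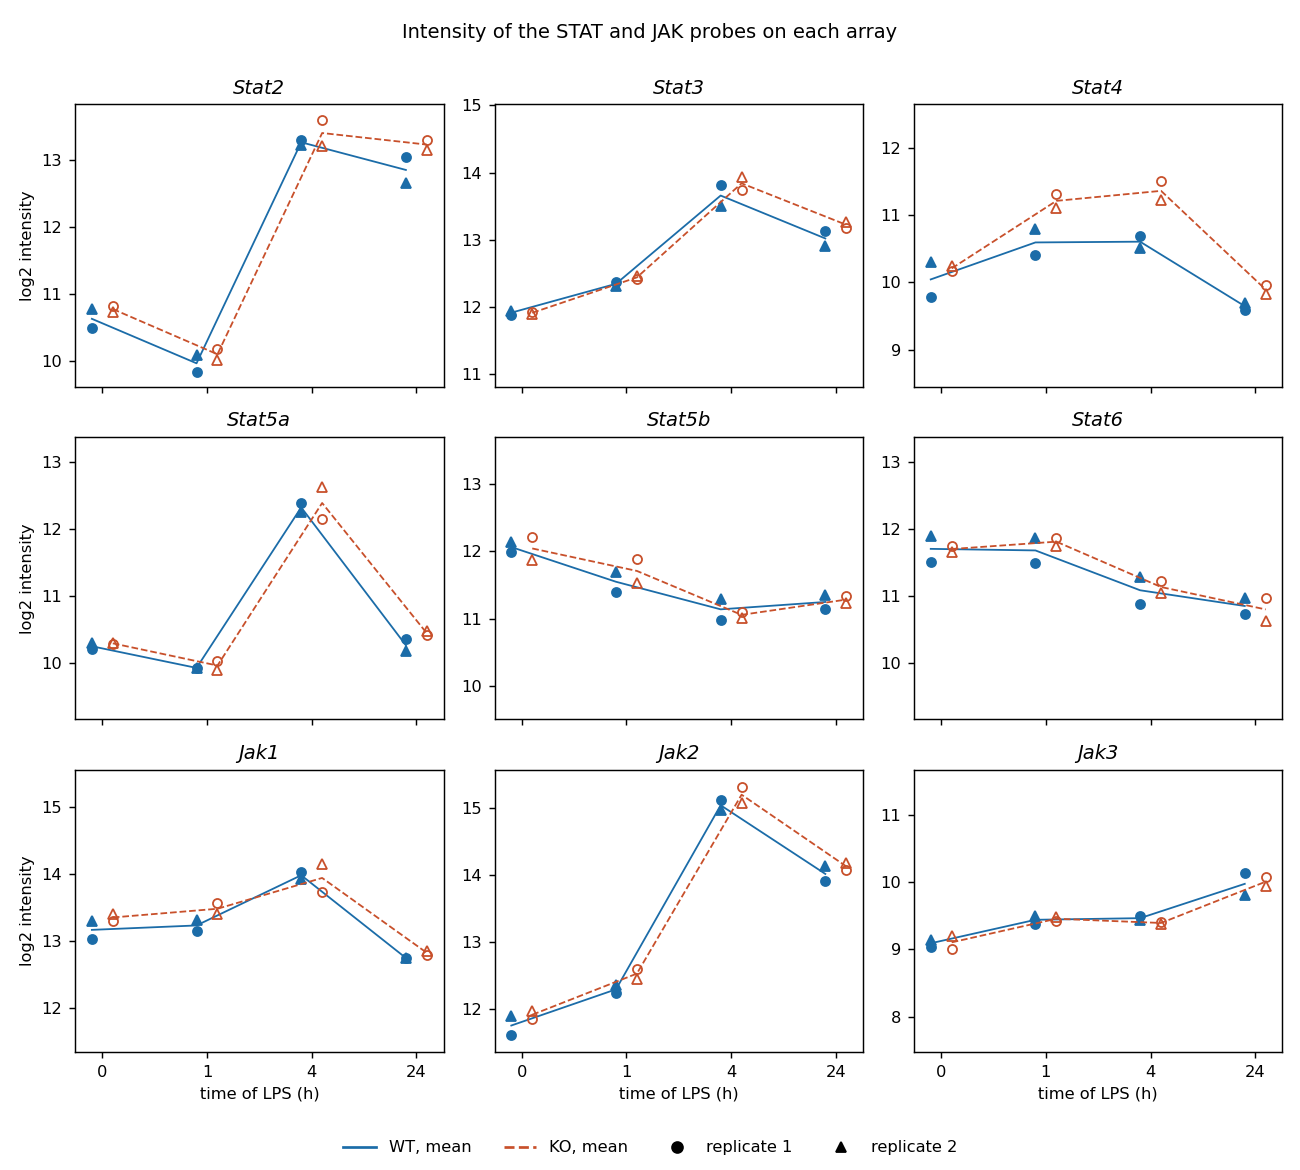
Normalized log2 intensity of each member's probe (vertical axis, every panel spanning the same number of log2 units) against time of LPS in h (horizontal axis, not to scale). Filled blue symbols are WT and open red symbols the RNA labelled KO, circles are replicate 1 and triangles replicate 2, and lines join the means. Stat2, Stat3, Stat5a and Jak2 stood highest at 4 h in both genotypes, and Stat5b and Stat6 lay lower at 4 and 24 h than at 0 h.

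Stat2, the interferon-pathway STAT, fell first and then rose. Its log2 intensity in WT, replicates 1 and 2, was 10.49 and 10.78 without LPS, 9.85 and 10.10 at 1 h, 13.29 and 13.23 at 4 h, with 13.04 and 12.66 at 24 h. In the RNA labelled KO it was 10.83 and 10.73 without LPS, 10.19 and 10.03 at 1 h, 13.60 and 13.20 at 4 h, with 13.30 and 13.15 at 24 h. Both arrays of 1 h lay below, and all arrays of 4 and 24 h above, every array of 0 h in the same genotype. On the log2 scale the change from 0 h in WT was -0.66 (SE 0.16, adjusted p = 0.0178) at 1 h, 2.63 (SE 0.16, adjusted p = 1.55e-08) at 4 h and 2.21 (SE 0.16, adjusted p = 1.29e-07) at 24 h by limma, a 6.17-fold rise at 4 h. In the RNA labelled KO the values were -0.67 (SE 0.16, adjusted p = 0.0187), 2.62 (SE 0.16, adjusted p = 1.61e-08) and 2.45 (SE 0.16, adjusted p = 5.29e-08) by limma. The fall at 1 h in WT was not called with the scanner software's processed signals (limma adjusted p = 0.0635). It was not called either without replicate 2 of 0 h or replicate 1 of 1 h in WT, or without any 1 of the arrays of 0 and 1 h in KO.

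Stat3, which transmits IL-6 and IL-10 signals, rose at every time. In WT it measured 11.89 and 11.94 without LPS, 12.38 and 12.31 at 1 h, 13.81 and 13.50 at 4 h, with 13.14 and 12.90 at 24 h as log2 intensity. The RNA labelled KO measured 11.93 and 11.90 without LPS, 12.42 and 12.47 at 1 h, 13.74 and 13.94 at 4 h, with 13.18 and 13.27 at 24 h. The arrays of each LPS time lay above those of 0 h in both genotypes, those of 4 h the furthest. The change in WT was 0.43 (SE 0.12, adjusted p = 0.0439) at 1 h, 1.74 (SE 0.12, adjusted p = 5.78e-08) at 4 h and 1.10 (SE 0.12, adjusted p = 7.56e-06) at 24 h by limma, with a 3.35-fold rise at 4 h. In the RNA labelled KO it was 0.53 (SE 0.12, adjusted p = 0.0159), 1.93 (SE 0.12, adjusted p = 2.26e-08) and 1.31 (SE 0.12, adjusted p = 1.62e-06) by limma. The call at 1 h in WT held in 7 of 17 alternatives. It was lost with the processed signals, with another scaling between arrays, without scaling (limma adjusted p = 0.282), with the replicate number as a block (0.0504) and without any 1 of the arrays of 0, 1 and 24 h, and in KO it was lost without scaling and without any 1 of the arrays of 0 and 1 h. A second Stat3 probe, for another transcript, changed by 0.43, 1.92 and 1.13 in WT at 1, 4 and 24 h.

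Stat5a and Stat5b encode closely related STAT5 proteins and took opposite courses at 4 h. The log2 intensity of Stat5a in WT was 10.21 and 10.30 without LPS, 9.93 and 9.94 at 1 h, 12.38 and 12.26 at 4 h, with 10.36 and 10.18 at 24 h. For the RNA labelled KO these were 10.29 and 10.30 without LPS, 10.03 and 9.90 at 1 h, 12.14 and 12.63 at 4 h, with 10.42 and 10.48 at 24 h. All 4 channels of 4 h lay above all others, and by 24 h the values had come back to the range from 10.18 to 10.48. Stat5a rose by 2.07 (SE 0.14, adjusted p = 3.26e-08) in WT and by 2.09 (SE 0.14, adjusted p = 3.06e-08) in the RNA labelled KO at 4 h by limma, which is 4.19-fold and 4.25-fold. Its changes at 24 h were 0.015 (SE 0.14, adjusted p = 0.964) and 0.15 (SE 0.14, adjusted p = 0.51) by limma.

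Stat5b in WT measured 11.99 and 12.14 without LPS, 11.40 and 11.70 at 1 h, 10.98 and 11.29 at 4 h, with 11.14 and 11.36 at 24 h. The RNA labelled KO had 12.22 and 11.87 without LPS, 11.89 and 11.53 at 1 h, 11.10 and 11.01 at 4 h, with 11.33 and 11.23 at 24 h. The arrays of 4 and 24 h lay below those of 0 h in both genotypes. Stat5b changed by -0.93 (SE 0.17, adjusted p = 0.000476) in WT and -0.99 (SE 0.17, adjusted p = 0.000272) in the RNA labelled KO at 4 h by limma, a fall of 1.9-fold in WT. At 24 h the changes were -0.82 (SE 0.17, adjusted p = 0.00165) and -0.76 (SE 0.17, adjusted p = 0.00292) by limma, and the call in KO was lost without scaling between arrays (limma adjusted p = 0.0755) and without replicate 1 of 0 h (0.0534). A second Stat5b probe fell by 0.76 in WT at 4 h and by 0.64 at 24 h.

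Stat6, the IL-4 and IL-13 STAT, fell late. Its log2 intensity in WT was 11.51 and 11.89 without LPS, 11.50 and 11.86 at 1 h, 10.88 and 11.29 at 4 h, with 10.73 and 10.97 at 24 h. The values of the RNA labelled KO were 11.74 and 11.65 without LPS, 11.87 and 11.75 at 1 h, 11.22 and 11.05 at 4 h, with 10.97 and 10.63 at 24 h. At 1 h the values overlapped those of 0 h in WT and lay just above them in KO, and at 4 and 24 h both arrays lay below both of 0 h in each genotype. Stat6 changed by -0.62 (SE 0.18, adjusted p = 0.0162) in WT at 4 h and by -0.85 (SE 0.18, adjusted p = 0.00228) at 24 h by limma. In the RNA labelled KO the changes were -0.56 (SE 0.18, adjusted p = 0.0253) and -0.90 (SE 0.18, adjusted p = 0.00159) by limma. The call at 4 h was lost in WT without replicate 2 of 0 h (-0.42) or replicate 1 of 4 h (-0.41), and in the RNA labelled KO with the processed signals, with the mean over probes (-0.23), or without replicate 1 or 2 of 0 h or replicate 2 of 4 h. The other probes of Stat6 gave smaller changes, -0.16 and -0.22 at 4 h and -0.48 and -0.52 at 24 h in WT.

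Stat4, the IL-12 STAT, rose and came back. In WT it measured 9.78 and 10.30 without LPS, 10.40 and 10.79 at 1 h, 10.69 and 10.52 at 4 h, with 9.59 and 9.70 at 24 h as log2 intensity. Those in the RNA labelled KO were 10.17 and 10.24 without LPS, 11.31 and 11.11 at 1 h, 11.50 and 11.22 at 4 h, with 9.96 and 9.83 at 24 h. Both genotypes stood highest at 1 and 4 h, and at 24 h all 4 channels lay below every other channel except WT replicate 1 of 0 h. The WT change was 0.55 (SE 0.17, adjusted p = 0.0703) at 1 h, 0.56 (SE 0.17, adjusted p = 0.0195) at 4 h and -0.40 (SE 0.17, adjusted p = 0.105) at 24 h by limma. The change in the RNA labelled KO was 1.01 (SE 0.17, adjusted p = 0.00206), 1.15 (SE 0.17, adjusted p = 8.54e-05) and -0.32 (SE 0.17, adjusted p = 0.22) by limma. Without scaling between arrays, the WT change at 4 h was 0.16 and not called (limma adjusted p = 0.674), nor was it without replicate 1 of 0 h (0.30) or replicate 1 of 4 h (0.47). The WT change at 1 h was called in 4 of 17 alternatives, namely without replicate 2 of 0 h (0.81), without replicate 1 of 1 h (0.74), among probes well above background in at least 8 channels and in a replicate block with a dye term, chosen after seeing the data, and it ran down to 0.29 without replicate 1 of 0 h. At 24 h the WT value ran from -0.66 without replicate 1 of 0 h, where it was called, to -0.14 without replicate 2 of 0 h, and the block with a dye term called it too.

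Jak2, the kinase of GM-CSF and interferon gamma receptors, had the largest rise of the members. Its log2 intensity in WT was 11.62 and 11.90 without LPS, 12.24 and 12.36 at 1 h, 15.11 and 14.96 at 4 h, with 13.90 and 14.13 at 24 h. For the RNA labelled KO they were 11.86 and 11.98 without LPS, 12.61 and 12.46 at 1 h, 15.32 and 15.07 at 4 h, with 14.08 and 14.17 at 24 h. The arrays of each LPS time lay above those of 0 h in both genotypes. Jak2 rose by 3.28 (SE 0.13, adjusted p = 2.22e-10) in WT at 4 h by limma, which is 9.69-fold, and by 3.27 (SE 0.13, adjusted p = 2.4e-10) in the RNA labelled KO. At 24 h it was still higher, by 2.26 (SE 0.13, adjusted p = 1.19e-08) and 2.21 (SE 0.13, adjusted p = 1.57e-08), and at 1 h by 0.54 (SE 0.13, adjusted p = 0.0156) and 0.61 (SE 0.13, adjusted p = 0.008), all by limma. Without scaling between arrays the rises at 1 h were not called (limma adjusted p = 0.116 in WT and 0.0592 in KO), nor were they without replicate 1 of 0 h or replicate 1 of 1 h, or in WT without replicate 2 of 1 h.

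Jak1, which serves most of these receptors, was higher at 4 h and lower at 24 h. In WT it measured 13.03 and 13.31 without LPS, 13.15 and 13.32 at 1 h, 14.04 and 13.93 at 4 h, with 12.75 and 12.75 at 24 h. The RNA labelled KO gave 13.31 and 13.40 without LPS, 13.57 and 13.40 at 1 h, 13.73 and 14.16 at 4 h, with 12.80 and 12.86 at 24 h. The change in WT was 0.81 (SE 0.14, adjusted p = 0.000317) at 4 h and -0.42 (SE 0.14, adjusted p = 0.0359) at 24 h by limma, and in the RNA labelled KO 0.59 (SE 0.14, adjusted p = 0.00392) and -0.53 (SE 0.14, adjusted p = 0.0104). At 4 h both arrays lay above, and at 24 h both below, those of 0 h in each genotype, and at 1 h the values overlapped those of 0 h. The rise at 4 h in the RNA labelled KO was not called without replicate 2 of 4 h (0.37), and the fall at 24 h not without replicate 2 of 0 h or either array of 24 h. The fall at 24 h was also not called without scaling between arrays, where it measured -0.064 in WT and -0.15 in KO (limma adjusted p = 0.880 and 0.639).

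Jak3, the kinase of the common gamma chain, was highest at 24 h. Its log2 intensity in WT was 9.04 and 9.14 without LPS, 9.38 and 9.49 at 1 h, 9.49 and 9.44 at 4 h, with 10.14 and 9.81 at 24 h. The RNA labelled KO showed 9.01 and 9.20 without LPS, 9.42 and 9.49 at 1 h, 9.40 and 9.38 at 4 h, with 10.08 and 9.93 at 24 h. Every array after LPS lay above those of 0 h in its genotype, and those of 24 h above the rest. The rise at 24 h was 0.88 (SE 0.11, adjusted p = 3.17e-05) in WT and 0.90 (SE 0.11, adjusted p = 2.83e-05) in KO by limma. At 4 h it was 0.37 (SE 0.11, adjusted p = 0.019) in WT and 0.29 (SE 0.11, adjusted p = 0.0652) in the RNA labelled KO, and without scaling between arrays the value turned to -0.088 and -0.18 (limma adjusted p = 0.757 and 0.433). The WT call at 4 h was lost without replicate 1 of 0 h or either array of 4 h. A second Jak3 probe changed by 0.26 at 4 h and 0.68 at 24 h in WT.

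**Figure D2:**
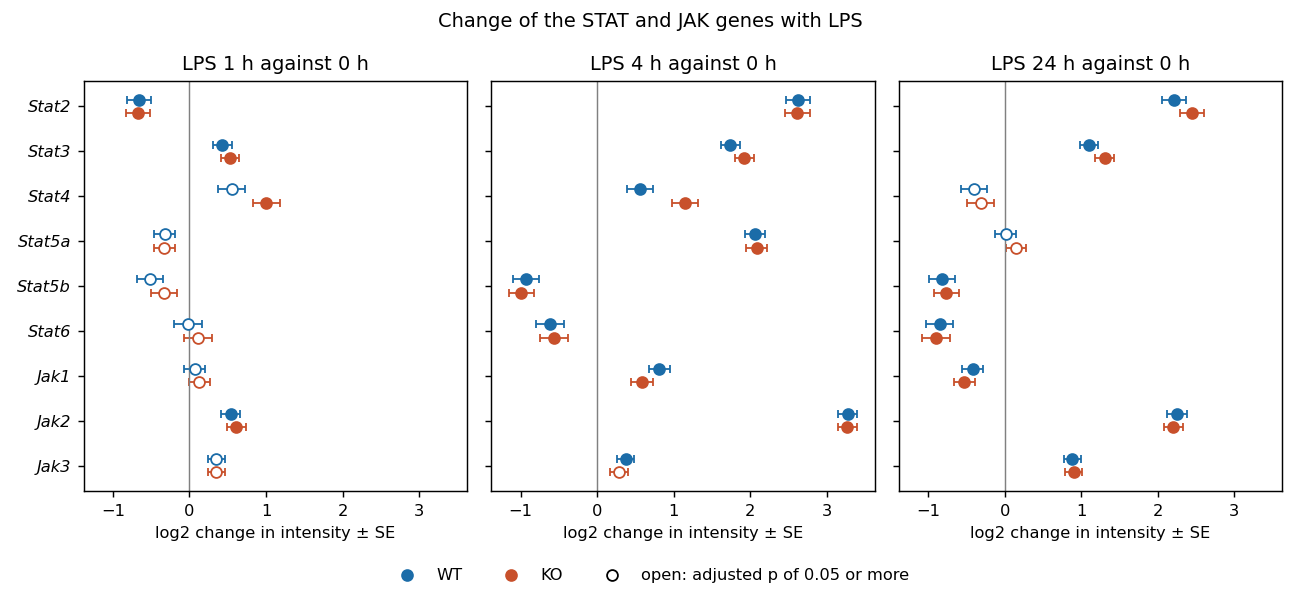
Fitted log2 change in intensity of each member from 0 h to 1, 4 and 24 h of LPS (one panel each), with the standard error of limma's separate-channel fit as bars. Blue is WT and red the RNA labelled KO, and open symbols have an adjusted p of 0.05 or more. Jak2 has the largest rise at 4 h in both genotypes, with 3.28 in WT and 3.27 in the RNA labelled KO, and Stat4 measured 0.56 and 1.15.

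The genes whose course over the 8 conditions came nearest to that of a member were found by the root mean square difference of the log2 means, each gene centred on its own mean, among 9525 named genes averaging 8 or more in log2 intensity. For Stat2 they were Mov10, Parp10 and Dtx3l, with differences from 0.19 to 0.21. Jak2 was followed most nearly by Slfn10-ps at 0.068, and then by Uck2 and Gvin1. For Stat5a the nearest gene was the folate carrier Slc19a1 at 0.059, for Stat3 it was Zfp281 at 0.10, and for Stat4 it was Nrip1 at 0.17. Stat5b had Zscan26 at 0.040 and Stat6 had Akap8 at 0.054. Jak1 was nearest to Pknox1 at 0.058 and Jak3 to Dock6 at 0.072. Among the members themselves, Stat5b and Stat6 were the nearest pair at 0.24, Stat4 and Jak1 followed at 0.34, and Stat2 and Stat6 were furthest apart at 1.80. The members were set beside each other as courses only, since intensities of different probes are not comparable as levels.

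The rest of the pathway was described from lists written out of general knowledge, at 4 h of LPS in WT, with the count of genes called by limma, to be read against the 15.5% of all features called higher and 19.2% called lower. Among features well above background in at least 8 channels, 12559 of 19652 were called there in either direction. Of the 130 distinct list genes tested in the ratios, 126 passed that filter. Of 19 cytokine ligands that signal through these kinases, 15 rose and none was called lower, with a median log2 change of 3.58. Il6, whose receptor uses STAT3, rose by 9.55 (SE 0.28, limma adjusted p = 2.33e-11). Csf2, the gene of GM-CSF, was not well above background in WT at 0 h and was at least 349-fold higher at 4 h, taking as floor the lowest signal of any probe well above background on each array, or the probe's own signal where that was higher. Of 4 interferon receptor genes 3 fell and none rose, among them Ifnar1 by 1.10 and Ifngr1 by 1.12 on the log2 scale. Of 11 receptor genes of the gp130, IL-10 and IL-12 families, 2 rose and 3 fell, near the shares over all features, and the IL-6 receptor gene Il6ra fell by 3.39 (SE 0.14, limma adjusted p = 3.59e-10). In this family Osmr, the oncostatin M receptor, was not well above background at 0 h in WT and was at least 5.29-fold higher at 4 h. Of 10 receptor genes of the gamma chain and of IL-4 and IL-13, 5 rose and none fell, led by Il2ra with 3.91. Of 11 beta common and homodimeric receptor genes 5 fell and none rose, and Csf2rb2 fell by 1.56. The medians of these 4 families were -0.91, -0.13, 0.60 and -0.48, and differences between families were not tested.

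Inhibitors of the pathway moved in both directions, with 8 of 18 higher, 4 lower, the latter near the share over all features, and a median change of 0.23. Socs1, which blocks Janus kinases, rose by 5.67 (SE 0.17, limma adjusted p = 2.2e-11), and Socs3, the inhibitor of gp130 signaling, by 4.73 (SE 0.21, limma adjusted p = 8.35e-10). The phosphatase gene Ptpn6 fell by 1.31. Of 9 partners and nuclear cofactors of the STAT proteins 4 rose, led by the STAT-binding protein gene Nmi with 2.82, and 1 fell, the coactivator gene Ncoa1 by 1.13, with a median of 0.39.

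Known target genes moved as follows. All 18 measured STAT2 targets rose at 4 h in WT, with a median of 5.57, and all 18 were called higher at 24 h with a median of 4.85. Cxcl10, a chemokine gene, rose by 9.02 (SE 0.28) and the antiviral gene Rsad2 by 8.88 (SE 0.17, limma adjusted p = 1.0e-12). At 1 h, when Stat2 itself was lower, 8 of the 18 were called higher and 1 lower in WT, with a median of 0.48, where 3.37% and 5.18% of all features were called higher and lower. Of 16 STAT3 targets 12 rose and 2 fell at 4 h, the median being 2.12, and the acute-phase gene Hp fell by 2.06. Of 9 STAT5 targets 8 rose and none fell, with a median of 1.43, led by Osm with 4.74 and the feedback inhibitor gene Cish with 4.71. The 19 STAT6 targets were divided, with 9 higher, 6 lower and a median of 0.28 at 4 h, and 8 higher, 10 lower and a median of -0.71 at 24 h, a time at which 13.5% of all features were called higher and 16.9% lower in WT. Arg1, the arginase gene of alternative activation, fell by 2.21 at 4 h (SE 0.70, limma adjusted p = 0.0230) but was higher than at 0 h by 3.11 at 24 h (SE 0.70, limma adjusted p = 0.00316). The lipoxygenase gene Alox15 changed by -1.89 at 4 h and -6.79 at 24 h. Socs1 and Cish, which stand in the STAT6 list as well, rose, and both also belong to other lists. Il12b, Mx1 and Mx2 were listed but are not analysed here.

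**Figure D3:**
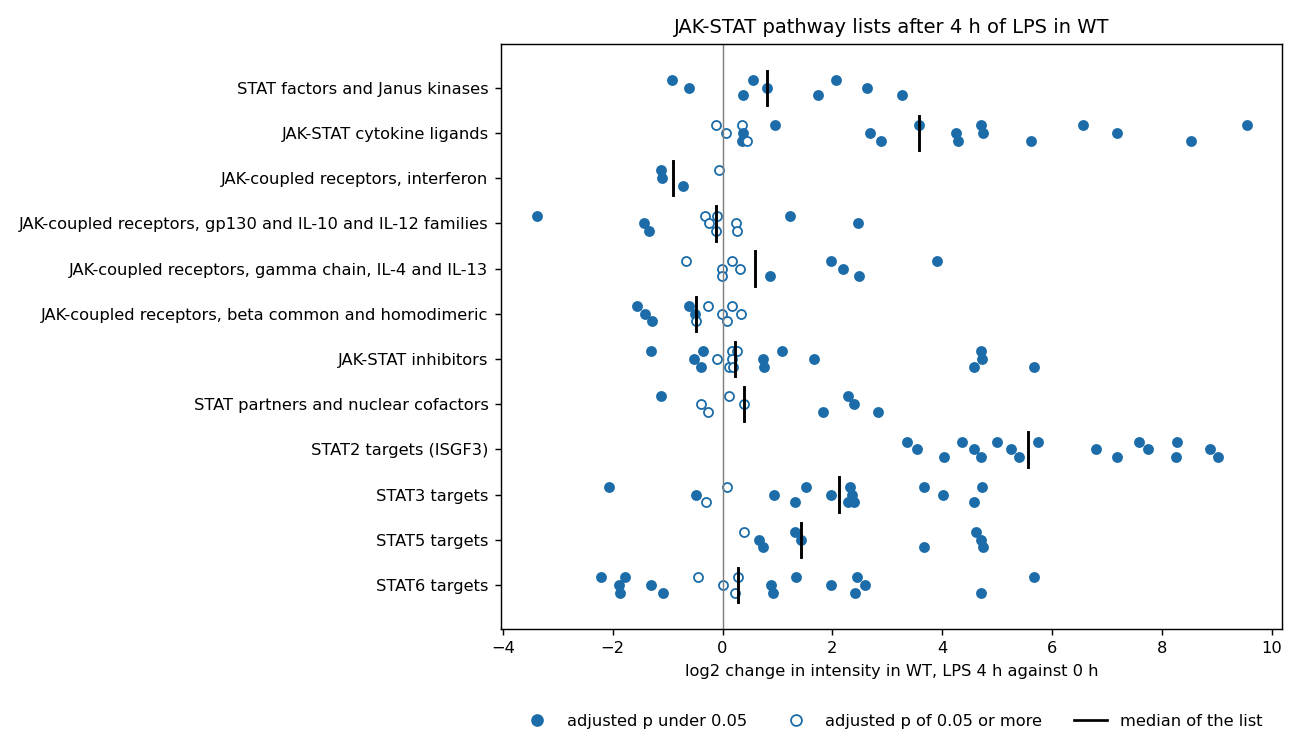
Fitted log2 change in intensity from 0 to 4 h of LPS in WT (horizontal axis) for each measured gene of the members and of the 11 pathway lists (rows), with a black bar at the median of each list. Filled points have a limma adjusted p under 0.05. The STAT2 targets lie furthest to the right, with a median of 5.57, and the interferon receptors to the left of 0, with a median of -0.91.

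Between the RNA labelled KO and WT, fitted mean ratios of the members ran from -0.0027 for Jak3 to 0.45 for Stat4 on the log2 scale. No member was called in any KO/WT comparison by limma on the array ratios, whether at 0 h (0% of all 36947 features called), 1 h (0%), 4 h (0.00812%), 24 h (0.0244%) or in the mean over the 4 times (0.563%). The 208 features behind the last share came to 1 without replicate 1 of 0 h, 7 without replicate 2 of 4 h and 0 with the processed signals, and leaving out any other array gave 22 to 161. No member had a change in KO/WT ratio from 0 h that was called, and no feature of the array had one (0% at 1, 4 and 24 h, where 517, 1073 and 1230 features had an unadjusted p under 0.05). With replicate number as a block, 0 features were called in the change to 1 h (0%), 13 in that to 4 h (0.0352%) and 78 in that to 24 h (0.211%), none of them a member, and without replicate 1 of 1 h the change to 1 h had 8. At an unadjusted p under 0.05 stood Stat4 and Jak2 at 1 h, Stat4 at 4 h, Stat2 at 24 h, Stat2, Stat4 and Jak2 in the mean, and Stat4 in the change to 4 h. Of all features, 2126 stood there at 0 h, 2017 at 1 h, 1592 at 4 h and 1263 at 24 h, while the mean had 3935 of them. The methods' t-test of the study, run here on KO against WT within a time point, gave an unadjusted p under 0.05 for Stat4 at 4 h and for no other member or time. In that test 1707, 1756, 1134 and 1515 of all features stood there at 0, 1, 4 and 24 h, and none was called after Benjamini-Hochberg adjustment. The paper, with its own processing, reports genes at a corrected p under 0.05 in unstimulated macrophages. What lies behind this difference was not tested. The fitted mean ratio was above 0 for 8 of the 9 members, with a median of 0.12 against 0.0002 over all features.

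Stat4 had the largest ratio. On the log2 scale KO/WT was 0.39 and -0.06 without LPS, 0.92 and 0.32 at 1 h, 0.81 and 0.70 at 4 h, with 0.36 and 0.13 at 24 h, for replicates 1 and 2. It was above 0 on 7 of 8 arrays, and channels labelled KO and WT did not overlap at 1, 4 or 24 h but did at 0 h. The ratio was 0.62 at 1 h (SE 0.16, limma adjusted p = 0.609) and 0.76 at 4 h (SE 0.16, limma adjusted p = 0.426). The mean over the 4 times was 0.45 (SE 0.079, 95% interval 0.27 to 0.63, adjusted p = 0.0543) by limma, a 1.36-fold higher level in the RNA labelled KO that missed the threshold. That fit takes the 8 arrays as independent, so its SE, interval and p do not allow for replicate differences shared between times. With the replicate number, and with it the dye, as a block, Stat4 was called at 1 h (limma adjusted p = 0.0267), at 4 h (0.00877) and in the mean (0.000737), in a fit that called 0.577%, 0.568% and 6.01% of all features. Without both arrays of 4 h, on which Furin was not lower, the mean was 0.34 (limma adjusted p = 0.271). The difference between the genotypes in the LPS response of Stat4 was 0.59 at 4 h (SE 0.22, 95% interval 0.085 to 1.10, limma adjusted p = 1.00) and 0.46 at 1 h (95% interval -0.052 to 0.96). Leaving out 1 array moved the first value to between 0.37, without replicate 2 of 0 h, and 0.82, and the second to between 0.16, without replicate 1 of 1 h, and 0.75.

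Stat4 is known from T and NK cells as well as from myeloid cells, and marker sums of other cells are given beside its ratio. The summed intensity of 13 measured T and NK cell markers of 14 had a log2 KO/WT ratio of 0.41 and -0.017 without LPS, 0.78 and 0.0034 at 1 h, 0.22 and -0.33 at 4 h, with 0.20 and 0.071 at 24 h. Replicate 1 was thus higher than replicate 2 at every time for both Stat4 and these markers, while at 4 h Stat4 was above 0 on both arrays and the markers on one. Their sums ran in WT from 16070 to 24460 at 0 h, 18380 to 27720 at 1 h, 10880 to 14450 at 4 h and 12820 to 13980 at 24 h. With the label KO they ran from 21330 to 24170, 27780 to 31630, 11530 to 12690 and 14680 to 14720. The NK cell genes Klrb1c and Ncr1 were well above background in no channel. The summed intensity of 8 mast cell markers, 7 of them well above background in every condition and Ms4a2 in no channel, ran from 8932 to 12440 in WT and 11320 to 16220 in the RNA labelled KO at 0 h, 12460 to 12970 and 13720 to 18100 at 1 h, 33900 to 47470 and 57250 to 58730 at 4 h, and 12830 to 13690 and 16440 to 18120 at 24 h. The mast cell sum followed 1 gene at 4 h, the histidine decarboxylase gene Hdc, which rose by 5.11 in WT, while the other 7 had changes from 0.16 to 0.66 and were not called. In the KO/WT mean 6 of the 8 mast cell markers had ratios from 0.38 for Tpsb2 to 0.60 for Cpa3, beside 0.45 for Stat4, with 0.048 for Mcpt4 and -0.043 for Ms4a2. Replicate 1 minus replicate 2, averaged over the times, ran from -1.34 for Cma1 to -0.23 for Hdc among these 6. It was -0.053 for Mcpt4 and 0.11 for Ms4a2, whereas Stat4 was higher in replicate 1 at every time. None of the 8 was called (limma adjusted p from 0.0684 to 0.936), as Stat4 was not. The summed intensity of the 10 B cell markers was higher in the RNA labelled KO on the 6 arrays of 0, 1 and 24 h, with log2 ratios from 0.081 to 0.61, and lower on both of 4 h, with -0.33 and -0.088. Macrophage markers were called in the mean in both directions by limma. Csf1r (-0.41, adjusted p = 0.0183) and Lyz2 (-1.18, adjusted p = 0.000484) of the defining markers were lower, as were Itgax (-0.38, adjusted p = 0.0245) and Retnla of the small peritoneal macrophages. Icam2 (0.34) and Serpinb2 (0.59) of the large peritoneal macrophages were higher, each with an adjusted p of 0.0266. The part of these markers in the values of Stat4 was not tested.

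Jak2 was above 0 on all 8 arrays, the only member of which this held. Its log2 KO/WT ratio was 0.24 and 0.078 without LPS, 0.37 and 0.10 at 1 h, 0.20 and 0.11 at 4 h, with 0.18 and 0.047 at 24 h. The mean was 0.17 (SE 0.051, 95% interval 0.05 to 0.28, adjusted p = 0.238) by limma, and with the replicate block it was called (limma adjusted p = 0.0410). The 95% interval of the mean ratio reached at most 1.22-fold.

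Stat2 was above 0 on 5 arrays, with a mean of 0.20 (SE 0.072, 95% interval 0.035 to 0.36, adjusted p = 0.34) by limma. Its ratio at 24 h was 0.26 and 0.49 on the 2 arrays, and KO and WT channels did not overlap there. For Stat5b and Stat6 the ratio followed the replicate number, above 0 on all 4 arrays of replicate 1 and below 0 on all 4 of replicate 2. They ranged from -0.29 to 0.49 for Stat5b and from -0.34 to 0.37 for Stat6, and the means were 0.023 and 0.031. Stat3, Stat5a and Jak1 had means of 0.12, 0.081 and 0.12, and they were above 0 on 6, 6 and 7 arrays. Leaving out 1 array moved these means to between 0.056 and 0.18 for Stat3, 0.004 and 0.16 for Stat5a and 0.050 and 0.18 for Jak1, and those of Stat5b, Stat6 and Jak3 to either side of 0. Jak3 stayed within -0.089 and 0.12 on all arrays, with a mean of -0.0027 (SE 0.045, 95% interval -0.11 to 0.1, adjusted p = 0.997) by limma. The 95% intervals of the means of Stat3, Stat5a, Stat5b, Stat6, Jak1 and Jak3 included 0 and reached from 0.87-fold to 1.21-fold.

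**Figure D4:**
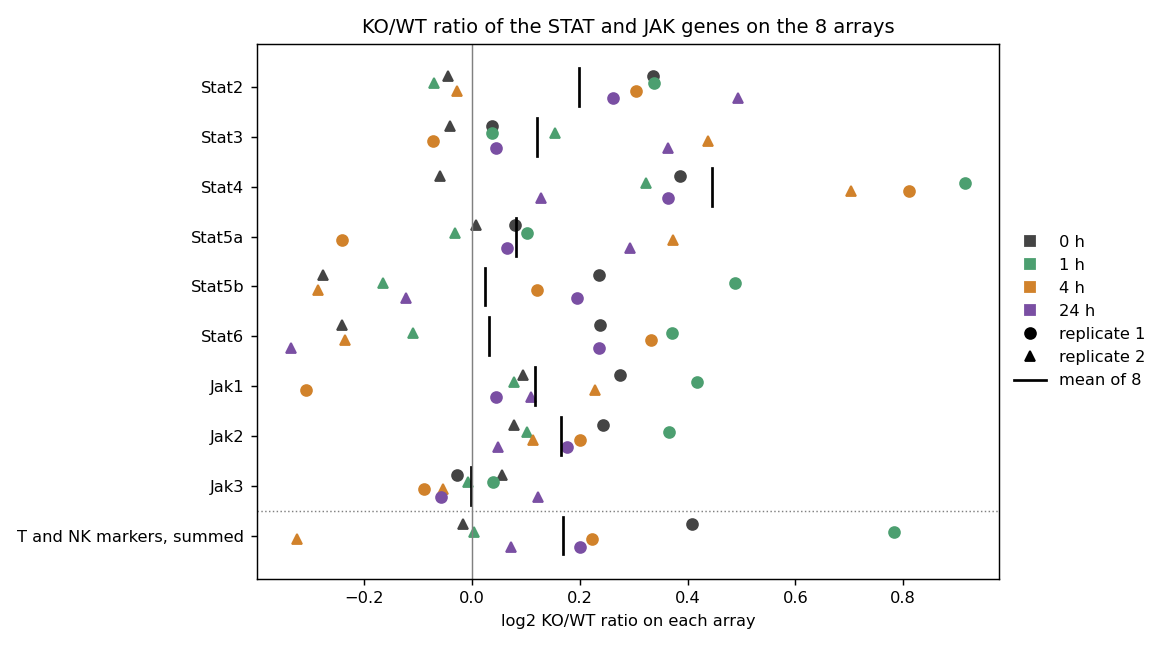
Log2 KO/WT ratio (horizontal axis) of each member on each of the 8 arrays, and below the dotted line that of the summed T and NK cell markers. Colours give the time of LPS, circles are replicate 1, triangles replicate 2, and black bars the mean of the 8 arrays. Stat4 lies furthest from 0 with a mean of 0.45, Jak2 is above 0 on all 8 arrays, and Stat5b and Stat6 part by replicate.

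Of the 130 distinct genes tested from the pathway lists, 4 were called in the mean KO/WT ratio over the times, or 3.08%, beside 0.563% of all features. Among the receptors, Lifr was higher in the RNA labelled KO by 0.53 (SE 0.071, limma adjusted p = 0.0266). Among the STAT3 targets, Ccnd1, the cyclin D1 gene, was higher by 0.76 (SE 0.075, limma adjusted p = 0.0121) and Hp was lower, with -0.98 (SE 0.093, limma adjusted p = 0.00894). Among the STAT6 targets, Retnla was lower, with -0.41 (SE 0.064, limma adjusted p = 0.0412). None of these 4 calls was kept with the software's processed signals, without replicate 1 of 0 h or without replicate 2 of 4 h, fits that called 0, 1 and 7 features of the whole array. With the processed signals the ratios themselves were 1.17 for Ccnd1, 0.71 for Lifr, -0.96 for Hp and -0.46 for Retnla (limma adjusted p from 0.159 to 0.211). Ccnd1 and Hp kept their calls without each other array in turn, Lifr without replicate 1 of 1 h or of 24 h and Retnla in no such fit, and the direction of all 4 stayed. Lifr and Retnla also lost their calls without both 4 h arrays (limma adjusted p = 0.290 and 0.110) and in the mean over the probes of a gene (0.116 and 0.0507), where Lifr stood at 0.30 and 0.26 and Retnla at -0.43 and -0.41. None of the measured ligands, inhibitors, cofactors, STAT2 targets or STAT5 targets was called. The STAT2 targets had a median ratio of 0.45 at 0 h, 0.12 at 1 h, 0.12 at 4 h, 0.25 at 24 h and 0.20 in the mean. With the replicate block 5 of the 18 were called at 0 h and 1 at 24 h, against 1.06% and 0.585% of all features. Other lists had such calls too, beside 0.577% of all features at 1 h and 0.568% at 4 h. At 0, 1, 4 and 24 h, STAT3 targets had 4, 2, 3 and 1 of 16 called, and STAT6 targets 2, 1, 0 and 1 of 19. Ligands had 1, 0, 2 and 2 of 19, and gp130, IL-10 and IL-12 family receptors 0, 0, 2 and 1 of 11. With the replicate block, in the fit that called 6.01% of all features, the calls in the mean came to 7 of 19 ligands, 1 of 4 interferon receptors, 4 of 11 gp130, IL-10 and IL-12 family receptors and 3 of 11 beta common and homodimeric receptors, and to 0 of 10 gamma chain, IL-4 and IL-13 receptors. They also came to 1 of 18 inhibitors, 2 of 9 cofactors, 7 of 18 STAT2 targets, 6 of 16 STAT3 targets, 4 of 9 STAT5 targets and 7 of 19 STAT6 targets.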

How the data were processed

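RNA of KO and WT macrophages was hybridized on 8 Agilent 2-colour arrays of 62976 spots. The authors extracted spot intensities with Agilent Feature Extraction 10.7.3 (submitters' processing notes), and the deposited scanner files hold the median intensity of each spot and channel, without normalization between arrays. The matrix the authors deposited holds normalized log2 ratios of Cy5 to Cy3, with column medians from 0.0061 to 0.0108, and served as an alternative.

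Using limma 3.58.1 (R 4.3.3), median intensities were background-corrected by normexp with an offset of 50, followed by loess within arrays and quantile normalization between arrays. Outlier spots (0.285% to 0.479% per array, and 1 of the 144 spots of the members) were left out, no gene spot was saturated, and spots of a probe were averaged. Probes were named through RefSeq transcripts (27509 of 55681), and the brightest probe stood for a gene or transcript. Testing was limited to features whose log2 intensity averaged 6 or more, 36947 in the ratios and 36927 in the channels.

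KO/WT log2 ratios were fitted with lmFit and eBayes, with 1 coefficient per time point and 4 residual degrees of freedom. LPS effects used limma's separate-channel fit (statmod 1.5.0, within-spot correlation 0.0978 from 5000 features). Benjamini-Hochberg adjustment ran over all features, with a threshold of 0.05. No source says how many mice a sample holds, so p-values measure the spread between these samples, and 2 arrays per time point limit the precision. The fits were tested on simulated data with independent noise and 200 features changed 2-fold. Recovered were 194 in the KO/WT mean, 152 in KO/WT at 4 h and 174 for LPS at 4 h in WT, with 5, 6 and 9 false calls. Smaller changes and replicate differences shared between times were not simulated.

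Differences between replicates 1 and 2 in KO/WT correlated across features between all 6 pairs of time points (r from 0.475 to 0.679). Replicate number goes with dye in these ratios, so pairing of samples and a dye effect cannot be told apart. Replicate number was also fitted as a block. Alternatives were the processed signals, other scalings, the deposited ratios, other filters, the mean over probes, the methods' t-test and leaving out each array. The members, the lists and the rule for named genes (the members, Furin and Lyz2, up to 2 largest rises and falls of each list at 4 h in WT, and the 3 nearest courses per member) were chosen with earlier results of these data known. Genes of the lists called in the KO/WT mean were named after their values were seen.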

Additional observations from a re-analysis of the deposited data

How the results depend on the processing

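The rises of Stat2, Stat3, Stat5a and Jak2 and the fall of Stat5b at 4 h, in both genotypes, kept their direction and call in all 17 alternatives run for each, with adjusted p at most 0.0120 (limma). The 1 h calls depended most on the processing. In WT, 3 members were called at 1 h, 1 with the processed signals, 1 without scaling between arrays and 5 among probes well above background in at least 8 channels. A replicate block with a dye term, an alternative chosen after seeing the data, called 5. In KO, 4 were called at 1 h and 2 without scaling between arrays. Leaving out an array gave 1 to 3 members at 1 h, 6 to 9 at 4 h and 6 to 8 at 24 h in WT, and 1 to 4, 6 to 9 and 6 to 7 in KO, with the lowest counts at 1 h in WT without either array of 1 h or replicate 1 of 0 h, and in KO without replicate 1 of 0 h or of 1 h (1 each) or without replicate 2 of either time (2 each). At 4 h in WT, Stat4, Stat6 and Jak3 were the members that lost their call when an array was left out. Without scaling between arrays, Jak3 at 4 h in WT reversed to -0.088.

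The replicate block called Stat4 at 1 h (1 member), Stat4 at 4 h (1 member) and Stat4 and Jak2 in the mean (2 members), lost Stat3 at 1 h in WT and changed no other call of a member. With each unnamed probe kept as a transcript of its own, chosen after seeing the data, Stat4 was called in the mean (1 member). Every other alternative, and each array left out, gave 0 members in every KO/WT comparison it could be run for. For LPS within a genotype, the t-test and the deposited ratios were not run, since they compare KO with WT. The causes were not tested.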
